A study of Homo sapiens with 16 samples.

Results

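The genes described here serve the display of peptides on MHC class I molecules and the cell's answer to interferon. They were chosen by symbol: a list of 48 symbols covering class I chains, peptide loading, the immunoproteasome, STAT and IRF factors and interferon-induced genes, which stand for 47 genes because DDX58 and RIGI name the same one. Of these, 42 were matched in a count table of 27037 symbols, and 38 passed the filter on low counts, among 15415 genes tested. HLA-E, HLA-F, TAP1, PSMB8 and PSMB9 were not analysed here. TAP2, TAPBP, IFITM1 and IFIH1 were matched but too low to test. RNA was sequenced from SK-N-BE(2)C, an adrenergic neuroblastoma line that carries amplified MYCN, in 16 samples. The 4 groups had 4 replicates each: vehicle (DMSO), the CDK4/6 inhibitor palbociclib at 1 µM (PB), all-trans retinoic acid at 10 µM (RA), and both agents at these doses (PB+RA). By the study's methods the cells were treated for 5 days and replicates were different passages of the line plated in separate experiments, so every result concerns a single tumour line grown without immune cells. The comparisons ask what each agent does alone, what both do together, and what each adds to the other. PB, RA and PB+RA were all set against the same DMSO samples.

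MHC class I molecules carry peptides from inside the cell to its surface, where cytotoxic T cells inspect them. The proteasome cuts the peptides, the TAP transporter brings them into the endoplasmic reticulum, aminopeptidases trim them, and chaperones load them onto a heavy chain held by beta-2-microglobulin. Interferons raise this machinery through JAK kinases, STAT and IRF factors, together with a set of antiviral effectors. Neuroblastoma is known for low class I at the cell surface.

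Each sample held 19.5 to 31.6 M counts. Levels are given in CPM as deposited, a gene's counts per 1e+06 counts of the sample. A count of 0 still allows 3 counts, or 0.0949 to 0.154 CPM depending on the sample's depth, for counting error only. A gene was called when edgeR's quasi-likelihood test gave an adjusted p (Benjamini-Hochberg, across the tested genes) under 0.05 and the log2 fold change lay beyond 0.5 in either direction. Unless stated, calls and intervals come from a fit without a block on the replicate number, which leaves differences between replicates in the spread. Across the tested genes, the middle log2 fold change was within -0.04 to 0.04 for each comparison. The 8 adrenergic markers were all expressed and tested. Replicates 1 and 2 stood apart from replicates 3 and 4 in every group on the third principal component, which held 10.8% of the variance, so changes within each set are given beside the calls named here that both sets did not make.

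Many interferon-induced genes carry the interferon-stimulated response element (ISRE), to which the complex of STAT and IRF9 proteins binds. Its core was searched as GAAANNGAAA on both strands, where N is any base, in RefSeq promoters (GRCh38.p14) that run from 250 bases before to 50 after a gene's start. The core stood in 1255 of 35116 promoters (3.57%) and in 31 of the 51 promoters matched to listed genes (60.8%). Windows of 5 genes are shown because they carry the same core and their RNA moved in different ways, as described further on. Capitals mark the core, or overlapping cores. In IFIT3 the core reads on the opposite strand.
B2M: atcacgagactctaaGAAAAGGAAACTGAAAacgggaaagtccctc
ISG15: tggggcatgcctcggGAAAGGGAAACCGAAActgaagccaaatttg
PSMB10: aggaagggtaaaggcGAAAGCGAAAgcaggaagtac
PLSCR1: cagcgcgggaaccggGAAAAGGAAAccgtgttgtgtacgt
IFIT3: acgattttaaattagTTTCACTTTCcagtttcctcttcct
In the order shown the windows lie at chr15:44711358-44711403 (plus strand), chr1:1013369-1013414 (plus), chr16:67936851-67936886 (minus), chr3:146544662-146544701 (minus) and chr10:89327860-89327899 (plus). Among tested genes with a promoter in the table, PB+RA raised 3 and lowered 5 of the 20 with the core, and raised 5 and lowered 2 of the 11 without it, where 24% of all tested genes rose and 17.9% fell. With PB these numbers were 2 and 5 of 20, and 0 and 3 of 11, beside 16.9% and 11.3% of all genes. With RA they were 2 and 1 of 20, and 2 and 1 of 11, beside 10.8% and 2.54%. A match describes the letters in this window and does not show that a factor binds there.

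PB raised 2 of the 38 (PSMB10 and IFIT3) and lowered 10, where 16.9% of all tested genes rose and 11.3% fell. RA raised 6 and lowered 3, where 10.8% of all genes rose and 2.54% fell. PB+RA raised 9 and lowered 8, against 24% and 17.9% of all genes, shares close to those of the members (23.7% and 21.1%). Against PB alone, PB+RA was higher for 10 and lower for 2, beside 9.02% and 7.27% of all genes. Against RA alone it was higher for 5 and lower for 10, beside 14.9% and 14.1%, or 29% in either direction. The median log2 change of the 38 was -0.21 with PB, 0.09 with RA and -0.13 with PB+RA, where all tested genes gave 0.03, 0.01 and 0.04. With the replicate number as a block, RA raised 10, where 13% of all genes rose, and PB raised 3, where 18.7% rose.

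**Figure D1:**
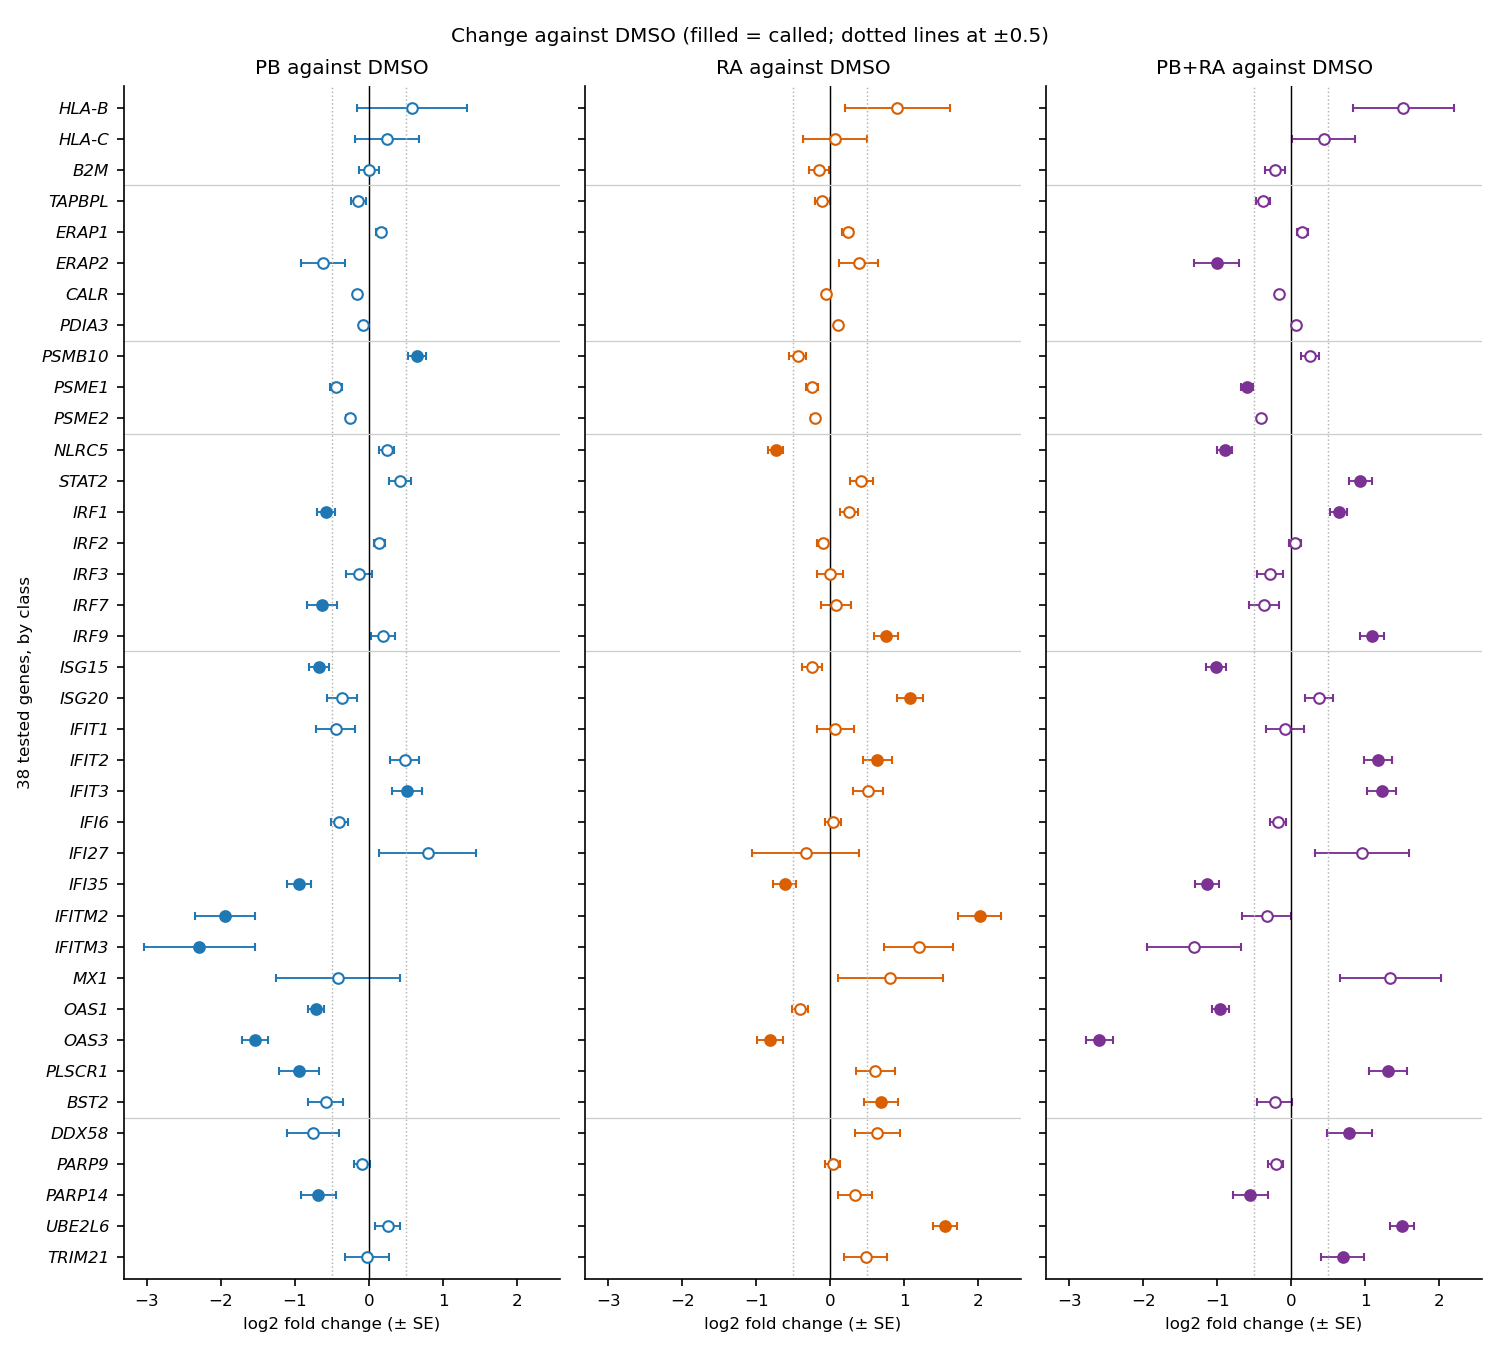
Log2 fold change against DMSO (horizontal axis, bars are SE) of the 38 tested genes, grouped by class from class I chains at the top to modifiers at the bottom. Filled points are called in the fit without a replicate block, and dotted lines mark 0.5 in each direction. The class I chains hold no filled point, OAS3 lies furthest to the left with PB+RA at -2.59, and IFITM2 lies at -1.95 with PB and at 2.02 with RA. IFITM2 held 18 counts in all in PB, so the size of its fall there is uncertain.

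None of the 3 class I chains measured was called by edgeR without a replicate block in any comparison. With the block HLA-B was called, as given further on. At an unadjusted p under 0.05, 1 was higher with PB+RA and none in the other comparisons, and DESeq2 called that 1, HLA-B. B2M encodes beta-2-microglobulin, the light chain that every class I molecule needs. It stood at 479, 476, 614 and 577 CPM in DMSO replicates 1 to 4, at 486, 487, 593 and 586 in PB, at 452, 412, 525 and 563 in RA, and at 378, 405, 550 and 539 in PB+RA. All 4 groups overlapped, and replicates 3 and 4 were above replicates 1 and 2 in each. Within each replicate number, RA and PB+RA were below DMSO. Without a replicate block, the log2 change of B2M was 0.01 with PB (95% interval -0.26 to 0.27), -0.15 with RA (-0.41 to 0.12) and -0.23 with PB+RA (-0.49 to 0.04). The fit with the block gave -0.24 for PB+RA, at an adjusted p of 0.000116. It gave -0.15 for RA, at an adjusted p of 0.0121, and 0.01 for PB. Each was under the 0.5 minimum. Without the block, a GC and length correction moved the PB+RA change to -0.05 and turned PB+RA against RA from -0.08 to 0.05. Block and correction together left PB+RA at -0.05 and RA at -0.10.

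HLA-C, a classical heavy chain, stood at 9.47, 9.46, 18.9 and 16.9 CPM in DMSO replicates 1 to 4, at 10.1, 8.66, 24.1 and 21.7 in PB, at 11, 7.04, 20.1 and 19.6 in RA, and at 12.6, 10.9, 28.2 and 24 in PB+RA. The set of replicates parted these values more than the treatment did. Its log2 change with PB+RA was 0.44 (95% interval -0.40 to 1.28), and 0.42 with the replicate number as a block (adjusted p = 0.000331), which is under the 0.5 minimum. HLA-B, another classical heavy chain, held 0.213, 0.0815, 0.538 and 0.426 CPM in DMSO, 0.3, 0.0967, 0.713 and 0.815 in PB, 0.328, 0.162, 1.02 and 0.946 in RA, and 0.437, 0.399, 1.09 and 1.95 in PB+RA, or 36, 42, 60 and 85 counts per group. The groups overlapped. Its log2 change with PB+RA was 1.51 ± 0.68 (SE, adjusted p = 0.0608), and it was called with the replicate block, at 0.92 with RA (adjusted p = 0.0165), 1.53 with PB+RA (adjusted p = 6.68e-05), 0.95 against PB (adjusted p = 0.00766) and 0.61 against RA (adjusted p = 0.0462). Replicates 3 and 4 alone also gave calls with PB+RA, at 1.53 (adjusted p = 0.00128), and against PB, at 0.93 (adjusted p = 0.0422). The PB+RA call was also made without DMSO 3, PB+RA 1 or PB+RA 2. All 8 fits that left out 1 replicate gave 0.96 to 1.92.

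The counts of genes that lie in the MHC were low as a whole. Between GABBR1 and KIFC1 on chromosome 6 (29523406 to 33377673, GRCh37), 15 of 86 matched protein-coding genes reached 1 CPM on average (17.4%), and their median was 0.039 CPM. The share was 46.8% and 58.6% in stretches of equal length on either side, and 72.3% over all chromosomes. RPS18, a ribosomal protein gene inside this interval chosen after its values were seen, had 0 to 2 counts in each sample, and BAG6, a chaperone gene chosen likewise, had 1 to 6. HLA-B, HLA-C, TAP2 and TAPBP lie in this interval, so their values are counts assigned to those genes and not RNA levels to be set beside other genes. What lowered the counts in this interval was not tested.

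**Figure D2:**
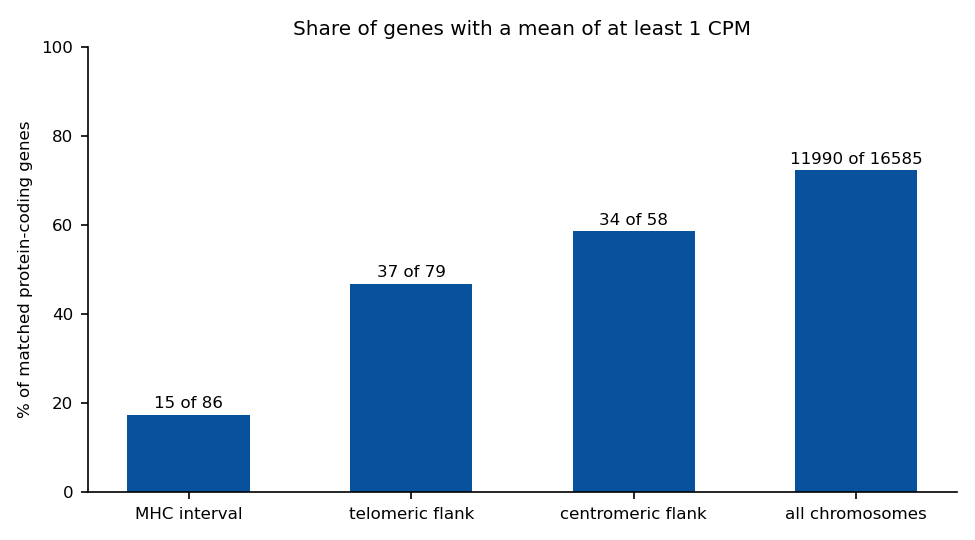
Percent of matched protein-coding genes whose average over 16 samples reached 1 CPM (vertical axis) in the MHC interval, in the stretches of equal length on either side and on all chromosomes. The MHC interval reached 17.4%, below 46.8% and 58.6% beside it.

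Of 5 tested genes of peptide transport, trimming and loading, PB and RA changed none past both thresholds by edgeR or DESeq2 (2 and 2 had an unadjusted p under 0.05) and PB+RA lowered 1. Over all tested genes 28.2% were called with PB and 13.3% with RA in either direction, and 17.9% fell with PB+RA. TAP2, a transporter subunit, and TAPBP, which encodes the loading bridge tapasin, had at most 0.596 and 0.362 CPM in any sample. ERAP1, an aminopeptidase that trims peptides to the length class I accepts, stood at 25.8, 29.2, 27.5 and 29.6 CPM in DMSO, 30.6, 32.7, 31.7 and 30.3 in PB, 33.4, 30.9, 34.3 and 34.1 in RA, and 32.0, 36.2, 28.3 and 30.0 in PB+RA. DMSO was below PB and below RA without overlap, but the changes were small: 0.16, 0.23 and 0.15 with PB, RA and PB+RA on the log2 scale. Exons of ERAP1 overlap 299 bases of CAST on the opposite strand, and without the strand setting of the counts their reads cannot be told apart.

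The loading chaperones CALR and PDIA3 were the most abundant genes of this class and were called in no comparison with DMSO. CALR, which encodes calreticulin, had a mean of 1075 CPM in DMSO, 958 in PB, 1043 in RA and 976 in PB+RA. PDIA3, its partner in loading, had 619, 585, 669 and 657 CPM. Per kilobase of exon CALR reached 361.5 CPM, B2M 162.7 and ERAP1 3.91. TAPBPL, a relative of tapasin that edits peptides, went from 11.5 ± 0.9 CPM in DMSO to 8.96 ± 1.21 in PB+RA (SD, n = 4), a log2 change of -0.38. The call among them was ERAP2, a further aminopeptidase named here after its values were seen, which fell with PB+RA by 1.01 on the log2 scale (SE 0.30, adjusted p = 0.00784), from 0.495 ± 0.097 to 0.247 ± 0.053 CPM (SD, n = 4), with no overlap. Neither set of replicates alone gave that call, at -1.1 and -0.95.

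PB and RA moved the immunoproteasome subunit PSMB10 apart. PSMB10 replaces a constitutive catalytic subunit when the immunoproteasome forms. It stood at 22.0, 21.8, 21.6 and 21.2 CPM in DMSO, 40.8, 35.9, 30.2 and 28.7 in PB, 16.5, 16.7, 14.9 and 16.2 in RA, and 30.4, 30.0, 23.4 and 21.2 in PB+RA. All PB samples were above all DMSO samples, all RA samples were below them, and PB+RA overlapped DMSO. PSMB10 rose with PB by 0.65 ± 0.12 (log2, SE; adjusted p = 0.000186), a 1.57-fold rise, which was 0.80 in replicates 1 and 2 and 0.42, under the minimum, in replicates 3 and 4. With RA its change was -0.44 ± 0.12 (adjusted p = 0.00862), under the fold minimum, and PB+RA was above RA by 0.69 ± 0.12 (adjusted p = 0.000116).

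PSME1 and PSME2 build the proteasome activator PA28, and of them PSME1 fell with PB+RA. PSME1 stood at 56.0, 58.5, 71.3 and 63.7 CPM in DMSO, 41.3, 43.5, 50.4 and 47.7 in PB, 49.9, 48.4, 56.1 and 57.6 in RA, and 40.2, 42.5, 43.0 and 42.2 in PB+RA. PB and PB+RA samples all lay below DMSO. PSME1 fell with PB+RA by 0.60 on the log2 scale (SE 0.08, adjusted p = 8.32e-06), with -0.50 in replicates 1 and 2, where it was not called, and -0.73 in replicates 3 and 4. Its change with PB was -0.45 (adjusted p = 0.000266), under the minimum. PSME2 had 64.2 ± 2.7 CPM in DMSO and 49.4 ± 2.1 in PB+RA (SD, n = 4), a log2 change of -0.41 that did not reach 0.5, and 216 bases of its exons overlap RNF31 on the opposite strand.

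Of 7 regulators tested, PB raised 0 (2 at an unadjusted p under 0.05) and lowered 2, RA raised 1 and lowered 1, and PB+RA raised 3 and lowered 1. Of all tested genes PB raised 16.9% and lowered 11.3%, RA 10.8% and 2.54%, and PB+RA 24% and 17.9%. NLRC5, the transactivator of class I genes, followed RA. It stood at 24.7, 25.4, 26.2 and 25.1 CPM in DMSO, 29.5, 31.3, 30.4 and 28.5 in PB, 13.0, 14.9, 18.6 and 14.6 in RA, and 12, 12.4, 16.4 and 14.6 in PB+RA. The RA and PB+RA samples lay below every DMSO sample and the PB samples above. NLRC5 fell with RA by 0.74 on the log2 scale (SE 0.10, adjusted p = 5.35e-05) and with PB+RA by 0.90 (SE 0.10, adjusted p = 9.99e-07), which is 1.87-fold. PB+RA was below PB by 1.14 (SE 0.10), and its distance from RA was -0.16 (adjusted p = 0.209).

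STAT2 and IRF9, partners in the complex that binds the ISRE, rose. STAT2 stood at 13.9, 12.6, 13.3 and 16.3 CPM in DMSO, 18, 13.9, 21.5 and 21.5 in PB, 16.6, 17.1, 19.4 and 22.4 in RA, and 26, 20.5, 32.0 and 30.6 in PB+RA. All PB+RA samples were above all DMSO samples, while PB overlapped DMSO. STAT2 rose with PB+RA by 0.93 ± 0.15 (log2, SE; adjusted p = 4.97e-05), 1.91-fold. Each agent alone gave 0.42, under the minimum. PB+RA was above PB by 0.51 (adjusted p = 0.0141) and above RA by 0.51 (adjusted p = 0.00933), just past the minimum. With a GC and length correction both were under it, at 0.48 and 0.46. Leaving out 1 replicate gave 0.39 to 0.63 against PB, not called without PB 2 or PB+RA 3 or 4, and 0.41 to 0.62 against RA, not called without RA 1 or 2 or PB+RA 3 or 4. Against RA it was 0.45 in replicates 1 and 2, under the minimum, and 0.58 in replicates 3 and 4.

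IRF9 stood at 11, 7.87, 11.6 and 12.3 CPM in DMSO, 12.1, 9.43, 13.2 and 14.1 in PB, 15.9, 15.6, 20.1 and 21.1 in RA, and 21.3, 18.2, 26.7 and 26.5 in PB+RA. RA and PB+RA lay above DMSO without overlap. It rose with RA by 0.75 ± 0.16 (log2, SE; adjusted p = 0.002) and with PB+RA by 1.09 ± 0.16 (adjusted p = 1.79e-05), 2.13-fold. PB+RA was above PB by 0.90 ± 0.16 (adjusted p = 0.000428). Against DMSO, the PB change was 0.19 (adjusted p = 0.344).

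**Figure D3:**
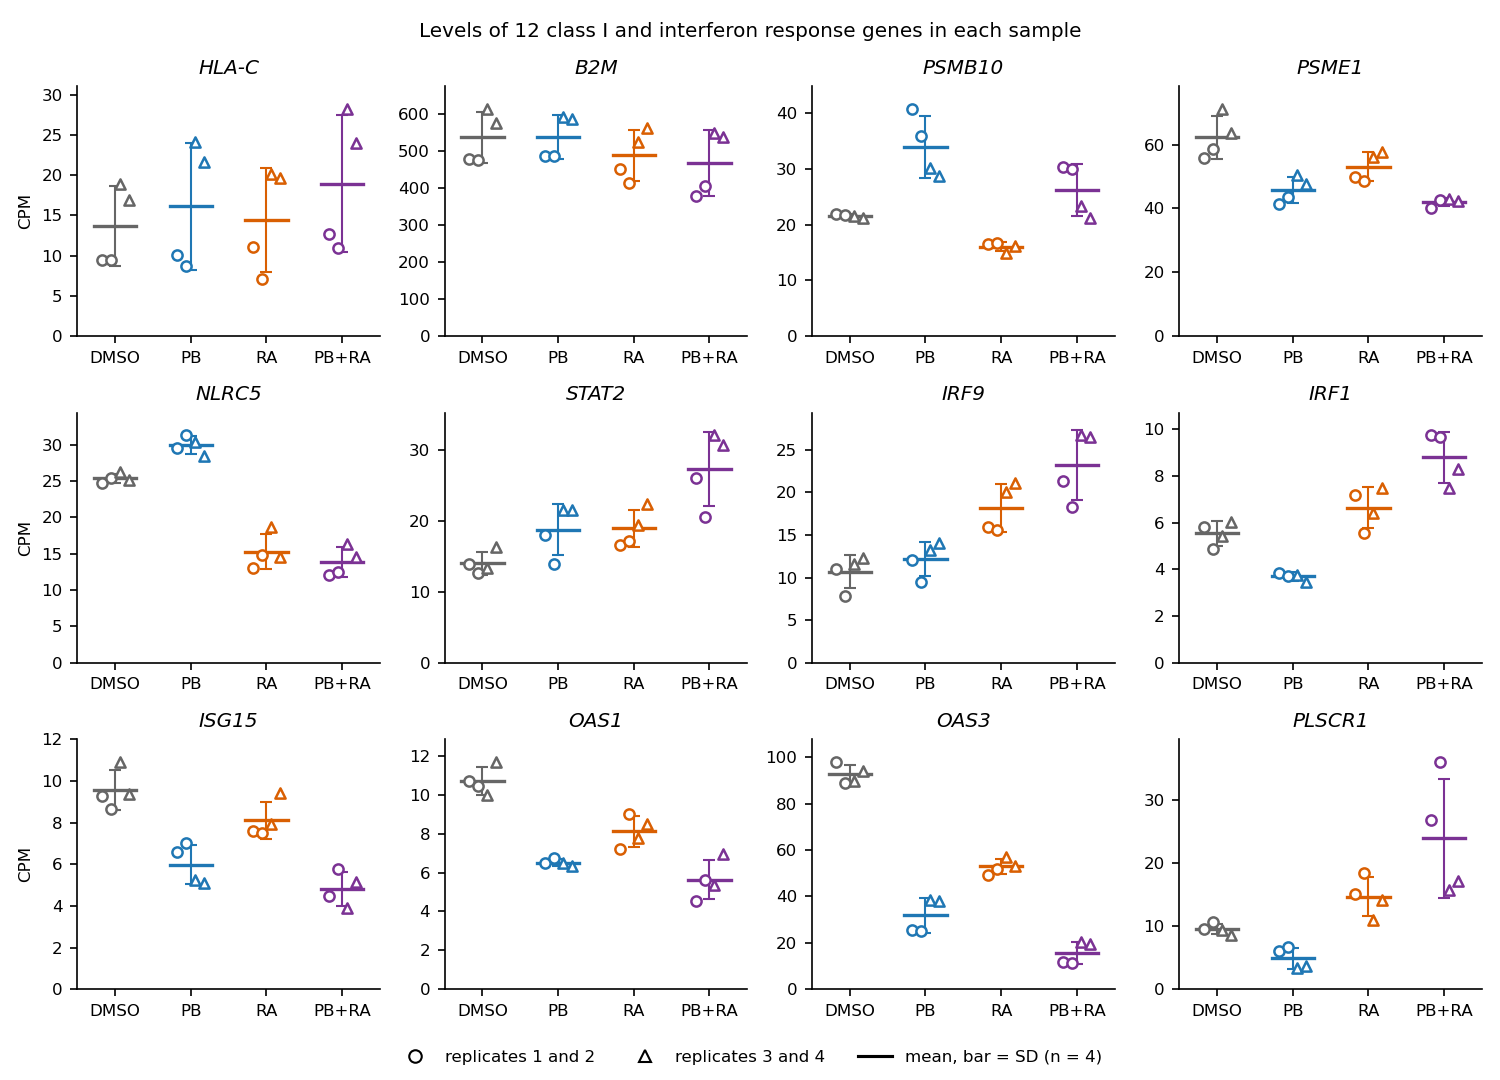
CPM (vertical axis, starting at 0) of 12 genes in each of the 16 samples. Circles are replicates 1 and 2, triangles replicates 3 and 4, lines are means and bars are SD (n = 4). OAS3 falls from 88.8 to 97.9 CPM in DMSO to 11.2 to 20.2 in PB+RA, STAT2 and IRF9 are highest in PB+RA, IRF1 and PLSCR1 are lowest in PB and highest in PB+RA, and HLA-C parts by replicate set.

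IRF1, a factor that switches on class I and antigen-processing genes, moved in opposite directions with PB and with PB+RA. It stood at 5.82, 4.85, 5.44 and 6.04 CPM in DMSO, 3.86, 3.72, 3.75 and 3.44 in PB, 7.17, 5.54, 6.41 and 7.48 in RA, and 9.74, 9.65, 7.48 and 8.30 in PB+RA. Every PB sample was below, and every PB+RA sample above, all DMSO samples. IRF1 fell with PB by 0.58 on the log2 scale (SE 0.12, adjusted p = 0.000785) and rose with PB+RA by 0.64 ± 0.12 (adjusted p = 0.000148). PB+RA was above PB by 1.22 ± 0.12 (adjusted p = 1.33e-06), 2.33-fold. With RA alone it changed by 0.25 (adjusted p = 0.106). The rise with PB+RA was 0.83 in replicates 1 and 2 and 0.39 in replicates 3 and 4, and 0.45 with a GC and length correction, both of the latter under the minimum. Its exons overlap 2805 bases of IRF1-AS1 on the opposite strand, which averaged 0.344 CPM.

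IRF7, which amplifies the interferon answer and is named here after its values were seen, had 3.34 ± 0.60 CPM in DMSO and 2.15 ± 0.53 in PB (SD, n = 4), which was a fall of 0.64 on the log2 scale (adjusted p = 0.0162) whose groups overlapped and which was not called without DMSO 4. IRF2 and IRF3, held at means of 20 to 23.4 and 21.5 to 25.7 CPM, were called in none of the 5 comparisons.

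The effectors that interferon induces did not move as a block. Of 15 tested, PB raised 1 and lowered 7, RA raised 4 and lowered 2, and PB+RA raised 3 and lowered 4. Over all tested genes PB raised 16.9% and lowered 11.3%, for RA the shares were 10.8% and 2.54%, and for PB+RA 24% and 17.9%. The effectors' median log2 change was -0.59 with PB, 0.51 with RA and -0.18 with PB+RA. With the block RA raised 7 of them. Those that fell with PB+RA were OAS3, OAS1, ISG15 and IFI35, and those that rose were PLSCR1, IFIT2 and IFIT3. With RA, ISG20, IFIT2, IFITM2 and BST2 rose, and OAS3 and IFI35 fell. The rise of IFIT2 with RA, 0.64 on the log2 scale (adjusted p = 0.0166), had overlapping groups. Its call was lost without DMSO 1 or RA 3. It was 0.46 in replicates 1 and 2, where it was not called, and 0.76 in replicates 3 and 4. ISG20, named after its values were seen, rose with RA by 1.08 on the log2 scale (SE 0.18, adjusted p = 0.000239), without overlap.

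OAS3 and OAS1 make 2-5A, the signal that activates RNase L on double-stranded RNA. OAS3 stood at 97.9, 88.8, 89.5 and 94.0 CPM in DMSO, 25.7, 25.0, 38.6 and 37.9 in PB, 49.3, 51.9, 57.1 and 53.2 in RA, and 11.7, 11.2, 20.2 and 19.5 in PB+RA. The 4 groups did not overlap, in the order DMSO, RA, PB and PB+RA. OAS3 fell with PB by 1.54 on the log2 scale (SE 0.18, adjusted p = 3.5e-06), with RA by 0.82 (SE 0.17, adjusted p = 0.00218) and with PB+RA by 2.59 (SE 0.19, adjusted p = 8.15e-09), which is 6.03-fold. PB+RA was also below PB, by 1.05, and below RA, by 1.78. The log2 change with PB+RA was -3.05 in replicates 1 and 2 and -2.27 in replicates 3 and 4.

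OAS1 stood at 10.7, 10.4, 9.99 and 11.7 CPM in DMSO, 6.48, 6.72, 6.51 and 6.34 in PB, 7.21, 9.02, 7.76 and 8.51 in RA, and 4.53, 5.62, 5.37 and 6.97 in PB+RA. Every treated sample was below every DMSO sample. OAS1 fell with PB by 0.71 on the log2 scale (SE 0.11, adjusted p = 4.84e-05) and with PB+RA by 0.96 (SE 0.11, adjusted p = 1.19e-06). With RA it changed by -0.41 (adjusted p = 0.00906), under the minimum.

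ISG15, a ubiquitin-like protein attached to others during the interferon answer, stood at 9.29, 8.64, 10.9 and 9.37 CPM in DMSO, 6.56, 7.01, 5.23 and 5.11 in PB, 7.58, 7.48, 7.95 and 9.42 in RA, and 4.45, 5.76, 3.92 and 5.12 in PB+RA. PB and PB+RA lay below DMSO without overlap, and RA overlapped it. ISG15 fell with PB by 0.68 on the log2 scale (SE 0.14, adjusted p = 0.000492) and with PB+RA by 1.02 (SE 0.14, adjusted p = 5.45e-06). PB+RA was below RA by 0.77 (adjusted p = 0.00017). The change with PB was -0.41, under the minimum, in replicates 1 and 2 and -1.02 in replicates 3 and 4. IFI35, named after its values were seen, was called lower in all 3 treated groups. It had 4.96 ± 1.16 CPM in DMSO, 2.58 ± 0.22 in PB, 3.26 ± 0.04 in RA and 2.29 ± 0.33 in PB+RA (SD, n = 4), with log2 changes of -0.95, -0.62 and -1.14. In RA it overlapped DMSO, and its change was -0.37 (adjusted p = 0.284) in replicates 1 and 2 and -0.88 in replicates 3 and 4.

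PLSCR1, a phospholipid scramblase with antiviral activity, fell with PB and rose with PB+RA. It stood at 9.50, 10.6, 9.46 and 8.55 CPM in DMSO, 6.01, 6.68, 3.37 and 3.67 in PB, 15, 18.5, 11 and 14.1 in RA, and 26.8, 36.0, 15.7 and 17.1 in PB+RA. PB lay below DMSO, RA above it and PB+RA above it, each without overlap. PLSCR1 fell with PB by 0.95 on the log2 scale (SE 0.27, adjusted p = 0.00832) and rose with PB+RA by 1.30 ± 0.26 (adjusted p = 0.000358), 2.46-fold. PB+RA was above PB by 2.25 ± 0.27 (adjusted p = 1.42e-05), 4.76-fold. With RA the change was 0.61 ± 0.26 (adjusted p = 0.0779), called with the replicate block at 0.58 (adjusted p = 0.00156). The rise with PB+RA was 1.61 in replicates 1 and 2 and 0.79 in replicates 3 and 4.

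IFIT2 and IFIT3, which bind foreign RNA and form complexes, rose with PB+RA and are named after their values were seen. IFIT2 went from 1.24 to 2.57 CPM in DMSO to 3.34 to 4.96 in PB+RA, a log2 change of 1.17 ± 0.19 (SE, adjusted p = 4.43e-05). IFIT3 went from 1.55 to 2.71 CPM to 4.52 to 5.18, a log2 change of 1.22 ± 0.20 (adjusted p = 3.8e-05). Neither overlapped between these groups. The rise of IFIT3 with PB, 0.52 ± 0.20 (adjusted p = 0.0394), lost its call in 6 of 8 fits that left out 1 replicate (DMSO 1, 2 or 3, or PB 1, 3 or 4). All 8 gave 0.39 to 0.69. The rise was also not called in either set of replicates alone, at 0.54 and 0.46. With the replicate block IFIT2 was called with PB at 0.50 (adjusted p = 0.0175) and IFIT3 with RA at 0.52 (adjusted p = 0.00741). Both genes share short exon overlaps, of 65 and 94 bases, with LIPA on the opposite strand, which averaged 100.4 CPM. IFIT1, of the same family, held 0.957, 1.14, 1.49 and 1.08 CPM in DMSO, 1.16, 0.871, 0.523 and 0.860 in PB, 1.02, 1.17, 1.39 and 1.35 in RA, and 0.676, 1.11, 1.17 and 1.59 in PB+RA. All groups of IFIT1 overlapped and its log2 change with PB+RA was -0.09 (95% interval -0.59 to 0.41).

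BST2 and IFITM2, effectors that act at membranes, rose with RA. BST2, or tetherin, which holds budding virus at the cell surface, stood at 1.95, 3.30, 2.72 and 2.86 CPM in DMSO, 1.37, 1.55, 2.19 and 2.08 in PB, 3.52, 4.69, 4.82 and 4.50 in RA, and 1.31, 2.48, 2.46 and 3.23 in PB+RA. RA lay above DMSO without overlap, while PB and PB+RA overlapped it. BST2 rose with RA by 0.69 ± 0.23 (log2, SE, adjusted p = 0.0263), a call lost in 5 of 8 fits that left out 1 replicate (DMSO 1 or 3, or RA 2, 3 or 4). Over all 8 the change was 0.53 to 0.79. It was 0.65 in replicates 1 and 2, where it was not called, and 0.69 in replicates 3 and 4. PB+RA was below RA by 0.92 (adjusted p = 0.00313). With PB the change was -0.59 (adjusted p = 0.0502), called with the replicate block at -0.58 (adjusted p = 0.00424).

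The IFITM proteins block virus entry at membranes. IFITM2, named after its values were seen, stood at 0.603 to 1.1 CPM in DMSO, 0.0475 to 0.272 in PB, 2.17 to 4.57 in RA and 0.485 to 0.930 in PB+RA. It fell with PB by 1.95 on the log2 scale (SE 0.41, adjusted p = 0.000665) and rose with RA by 2.02 ± 0.29 (adjusted p = 7.05e-05), both without overlap, and PB+RA overlapped DMSO. In PB, IFITM2 held 18 counts in all, and PB 3 lay below the level that 3 counts give. The size of its fall with PB is therefore uncertain. IFITM3 held 27, 4, 56 and 9 counts in all in DMSO, PB, RA and PB+RA. It stood at 0.0355, 0.408, 0.285 and 0.271 CPM in DMSO, 0, 0.0484, 0.143 and 0 in PB, 0.532, 0.647, 0.414 and 0.721 in RA, and 0.0795, 0.133, 0.0808 and 0.102 in PB+RA. Each PB and PB+RA sample was at or near the level that 3 counts give, so IFITM3 is given by its counts and no fold. It was called lower with PB (adjusted p = 0.0163), though not in replicates 1 and 2 alone, and lower in PB+RA than in RA (adjusted p = 0.00132), and with the replicate block higher with RA (adjusted p = 0.0178).

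IFI6, an interferon-induced protein of the endoplasmic reticulum and mitochondria, stood at 6.63, 7.01, 7.72 and 7.32 CPM in DMSO, 5.45, 5.42, 4.56 and 6.25 in PB, 6.02, 7.84, 7.61 and 8.20 in RA, and 6.80, 6.16, 6.34 and 6.46 in PB+RA. PB lay below DMSO without overlap, by -0.40 on the log2 scale (adjusted p = 0.00627), under the minimum. MX1, a dynamin-like GTPase that blocks virus replication, held 0.106, 0.122, 0.190 and 0.658 CPM in DMSO, 0, 0.145, 0.428 and 0.226 in PB, 0.205, 0.162, 0.678 and 0.856 in RA, and 0.795, 0.221, 1.05 and 0.666 in PB+RA. Its groups overlapped. With PB+RA its log2 change was 1.34 ± 0.68 (SE, adjusted p = 0.0954), called with the replicate block at 1.43 (adjusted p = 0.00877), as was PB+RA against PB at 1.82 (adjusted p = 0.00619). IFI27 had a mean of 0.244 to 0.598 CPM in the 4 groups and was called in none of the 5 comparisons. With the block IFI27 was higher in PB+RA than in RA by 1.33 (adjusted p = 0.0256).

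Of the RNA sensors and modifiers, 5 were tested. PB raised none and lowered 1, RA raised 1 and lowered none, and PB+RA raised 3 and lowered 1, beside 24% and 17.9% of all genes for PB+RA, 16.9% and 11.3% for PB and 10.8% and 2.54% for RA. PARP14, a mono-ADP-ribosyltransferase, stood at 12.2, 12, 15.7 and 18.4 CPM in DMSO, 7.42, 8.71, 10.4 and 9.82 in PB, 14.2, 13.7, 24.2 and 22.1 in RA, and 7.55, 6.91, 12.9 and 13.2 in PB+RA. PB lay below DMSO without overlap, and PB+RA overlapped it. PARP14 fell with PB by 0.68 on the log2 scale (SE 0.24, adjusted p = 0.0242) and with PB+RA by 0.56 (SE 0.24, adjusted p = 0.0493). The PB+RA call was lost without DMSO 3 or 4 or PB+RA 1 or 2. Over all 8 fits that left out 1 replicate the PB+RA change was -0.73 to -0.43. It was -0.77 in replicates 1 and 2 and -0.45, under the minimum, in replicates 3 and 4. The call with PB was lost without DMSO 4 or PB 1, and all 8 fits that left out 1 replicate gave -0.79 to -0.56. PARP9, its neighbour on chromosome 3, had means of 19.4 to 22.7 CPM and was called nowhere.

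UBE2L6, DDX58 and TRIM21 rose with PB+RA and are named after their values were seen. UBE2L6, the enzyme that passes ISG15 to its targets, stood at 1.22 to 1.86 CPM in DMSO, 1.55 to 2.19 in PB, 4.38 to 4.97 in RA and 3.76 to 5.69 in PB+RA. It rose with RA by 1.55 ± 0.16 (log2, SE; adjusted p = 3.8e-06) and with PB+RA by 1.5 ± 0.16 (adjusted p = 5.26e-07), while ISG15 itself fell with PB+RA. DDX58, the RNA sensor RIG-I, went from 0.348 to 0.569 CPM in DMSO to 0.687 to 0.914 in PB+RA (log2 change 0.78 ± 0.30, adjusted p = 0.0291). Its call was lost without DMSO 2 or 4 or PB+RA 1 or 4, and in both sets of replicates alone, at 0.87 and 0.65. All 8 fits that left out 1 replicate gave 0.67 to 0.93. TRIM21, an antibody receptor inside the cell, went from 1.63 to 3.70 CPM to 3.58 to 6.34 (0.69 ± 0.29, adjusted p = 0.0457), with overlap. That call was lost without DMSO 1, 2 or 4 or PB+RA 3 or 4, and in replicates 1 and 2 alone, at 0.60. For TRIM21 all 8 fits that left out 1 replicate gave 0.46 to 0.81. With the replicate block TRIM21 was also called against PB, at 0.73 (adjusted p = 0.000279). IFIH1, the sensor MDA5, had 1, 0, 5 and 0 counts in all in DMSO, PB, RA and PB+RA.

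Whether both agents together did more or less than the sum of their log2 changes was tested as an interaction. Among the 38 genes, 2 were called above additive and 0 below by edgeR and by DESeq2 (2 and 2 at an unadjusted p under 0.05), beside 0.415% and 3.02% of all tested genes. With the replicate block the counts were again 2 and 0, beside 1.23% and 6.36%. IRF1 departed by 0.97 ± 0.17 (log2, SE; 95% interval 0.63 to 1.30, adjusted p = 0.00345), with 1.09 in replicates 1 and 2 and 0.89 in replicates 3 and 4. PLSCR1 departed by 1.64 ± 0.37 (95% interval 0.91 to 2.37, adjusted p = 0.0177), with 1.56 and 1.78 in the same sets. For both, PB alone lowered the gene and PB+RA raised it. OAS3, which fell with each agent, had an interaction of -0.24 (95% interval -0.74 to 0.26). IRF9 had 0.14 (-0.31 to 0.59) and STAT2 0.09 (-0.33 to 0.52).

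**Figure D4:**
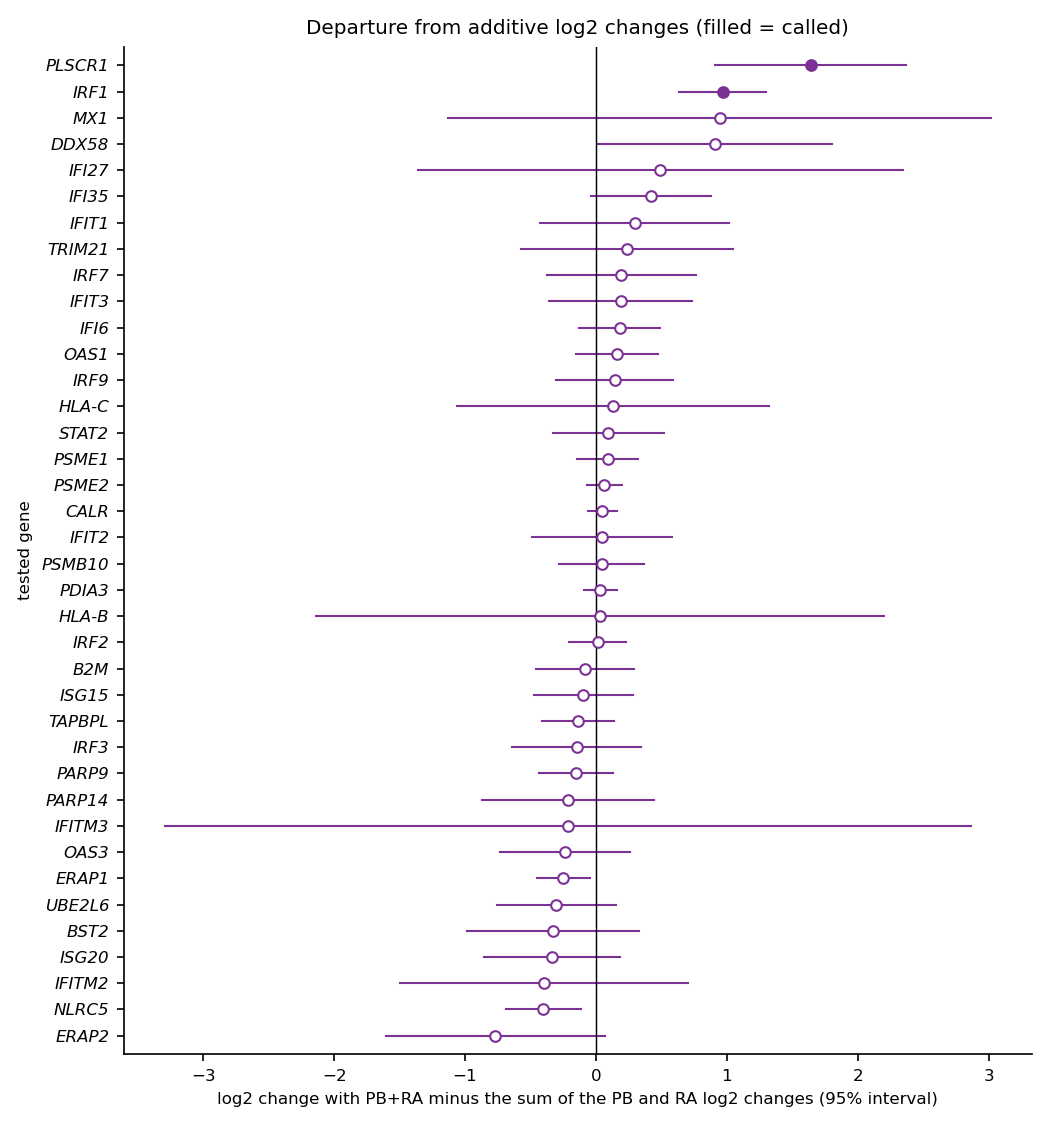
Log2 change with PB+RA minus the sum of the PB and RA log2 changes (horizontal axis, lines are 95% intervals) for the 38 tested genes, sorted. The filled points, IRF1 at 0.97 and PLSCR1 at 1.64, are the called ones, and the widest intervals belong to genes with few counts such as IFITM3, HLA-B and MX1.

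The interferon genes that could be seen were close to undetected. Of 10 interferon genes listed beside these, IFNB1 and IFNE were matched, and each had 1 count over all 16 samples. The others were not matched, so their levels were not seen. The receptors and kinases were expressed: of 8 tested, PB and RA changed none and PB+RA raised 3, where 24% of all tested genes rose. IL10RB, a receptor chain shared by interferon lambda, rose with PB+RA by 0.82 ± 0.11 (log2, SE; adjusted p = 6.45e-06), JAK1 by 0.61 ± 0.10 (adjusted p = 3.07e-05) and JAK2 by 0.85 ± 0.14 (adjusted p = 4.82e-05). JAK1 and JAK2 are kinases that phosphorylate STAT proteins.

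For the lists that follow, the backgrounds over all tested genes, higher then lower, were 16.9% and 11.3% (PB), 10.8% and 2.54% (RA) and 24% and 17.9% (PB+RA). Of 6 negative regulators tested, PB lowered 1 and PB+RA lowered 2, among them PTPN2, a phosphatase that acts on JAK and STAT proteins, by 0.55 on the log2 scale (adjusted p = 1.06e-05). Of 10 adaptors and kinases of nucleic acid sensing, PB raised 2 and lowered 1, and PB+RA raised 1 and lowered 2. TRIM25, which activates RIG-I, fell with PB+RA by 0.69 (adjusted p = 0.000111), and EIF2AK2, the RNA-activated kinase PKR, by 0.53 (adjusted p = 2.39e-06). A further 18 interferon-induced genes were tested, of which PB changed none, RA raised 5 and PB+RA raised 6, with 0 lower, while with the replicate block PB raised 1 and lowered 1. SAMD9L, a growth-restraining antiviral protein, averaged 0.628 CPM in DMSO, 10.6 in RA and 15.7 in PB+RA, a log2 change of 4.58 ± 0.55 with PB+RA (adjusted p = 2.78e-06). RSAD2, or viperin, rose with PB+RA by 0.77 ± 0.14 (adjusted p = 0.000122).

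On the class I side, 3 of 9 promoter factors fell with PB, 1 with RA and 3 with PB+RA, and none rose, where 11.3%, 2.54% and 17.9% of all tested genes fell. With PB+RA RFXAP, a subunit of the RFX complex that NLRC5 works with, fell by 1.26 on the log2 scale (SE 0.08, adjusted p = 8.4e-10), NFYB by 0.77 (adjusted p = 2.02e-06) and NFKB1 by 0.94 (adjusted p = 5.44e-10). Of 5 constitutive proteasome subunits and activators, PSMB6 fell with PB+RA by 0.64 (adjusted p = 3.21e-07) and the others were not called. Of 7 chaperones and cofactors of the endoplasmic reticulum, PDIA4 fell by 0.52 (adjusted p = 6.26e-09) and PDIA6 by 0.75 (adjusted p = 2.33e-09) with PB+RA.

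Other features of the cells moved along with these genes, and their part in the changes was not tested. The summed level of 6 proliferation markers was 1985 to 2072 CPM in DMSO, 1603 to 1743 in RA, 867 to 1033 in PB and 379 to 534 in PB+RA, the order that OAS3 also followed. The 8 adrenergic markers summed to 3857 to 4549 CPM in DMSO, 6272 to 7586 in PB, 3570 to 4799 in RA and 5181 to 8693 in PB+RA. Of them 4 were called higher with PB, where 16.9% of all tested genes rose. CHGA was the largest part of the sum, at means of 1706, 3875, 1475 and 3809 CPM in DMSO, PB, RA and PB+RA. The summed level of 9 mesenchymal markers, which are higher in the mesenchymal neuroblastoma state, was 1034 to 1267 CPM in DMSO, 865 to 1028 in PB, 1776 to 2189 in RA and 1092 to 1512 in PB+RA, highest in RA as for IFITM2 and BST2. VIM and FN1 carried this sum, at RA means of 1058 and 733 CPM. On average PRRX2 and SNAI2 were highest in DMSO, CD44 in PB, NOTCH2 in PB+RA and the others in RA. Of 8 leukocyte markers listed, 6 were matched and 2 tested. Their sum was 19.0 to 24.9 CPM in DMSO, 11.6 to 28.4 in PB, 43.4 to 104.0 in RA and 39.4 to 129.7 in PB+RA. CD14 carried it, at means of 16.4, 14.2, 59.3 and 65.0 CPM in DMSO, PB, RA and PB+RA. CD68, the other one tested, had 4.49, 3.72, 5.13 and 5.46 CPM. CD14 was called higher with RA and with PB+RA, and both genes were higher in PB+RA than in PB. Of all tested genes, 10.8%, 24% and 9.02% rose in these 3 comparisons. PTPRC, the marker of all leukocytes, had a mean of at most 0.132 CPM in any group, and LYZ and ITGAM at most 0.0648. The 8 fibroblast and endothelial markers summed to 141 to 219 CPM in DMSO, 172 to 210 in PB, 182 to 328 in RA and 131 to 208 in PB+RA. Of 7 tested, RA raised 3 (COL1A1, COL3A1 and PDGFRA) and lowered 1, beside 10.8% and 2.54% of all genes. PB raised 1, beside 16.9%, and PB+RA raised 2 and lowered 1, beside 24% and 17.9%. In bulk RNA, fewer cells that express a gene and less RNA of it per cell cannot be told apart.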

How the data were processed

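Groups and replicate numbers came from the sample titles. Per the submitters' processing notes, Trim Galore 0.6.4, STAR 2.6.1d and hg19 were used to trim and align the reads; the paper names another patch release of STAR. The deposited counts are the authors' raw read counts per gene. The deposited CPM are those counts scaled by the authors to 1e+06 per sample. The authors' DESeq2 1.32.0 table of log2 fold changes and adjusted p-values was not used. The annotation release, the strand column of the counts and the treatment of alternate MHC haplotypes are not given in the sources used here, so genes that overlap another on the opposite strand are uncertain.

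In R 4.3.3, edgeR 4.0.16 was fitted to all 16 samples (filterByExpr, TMM, robust quasi-likelihood, 1 coefficient per group, no block), with Benjamini-Hochberg adjustment over 15415 genes. The SE is the size of the log2 change divided by the square root of F, and 95% intervals are 1.96 SE to each side. This normal approximation is narrower than the test implies. For ERAP1 with PB+RA it gave 0.0036 to 0.29 where the quasi-likelihood test gave an unadjusted p of 0.0614. The interaction is the PB+RA log2 change minus the sum of the PB and RA log2 changes. Alternatives were RLE size factors, DESeq2 1.42.0, limma-voom (limma 3.58.1), other filters and fold minimums, fits of only the 2 groups compared, a GC and length correction, a replicate block, each set of replicates alone, and leaving out each replicate. The procedure was tested on simulated data.

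The members, classes and further lists were chosen with earlier results of these data known. CPM in each sample is given for 20 genes: fixed members of each class that passed the filter, and other called members with a mean of at least 5 CPM. Further pathway genes are named where called with PB+RA at a mean of at least 5 CPM, at most 3 a list. Samples with the same replicate number deviated together from their group means (24 pairs, r = 0.330 to 0.573, other pairs -0.492 to 0.447), so the numbers in the titles pair the samples. The main fit does not use this pairing. Its SE and intervals therefore hold differences between replicates that the replicate block takes out, and a gene not called there can be called with the block. Gene coordinates are from GENCODE models on GRCh37, and promoters from RefSeq on GRCh38.p14.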

Additional observations from a re-analysis of the deposited data

Results flagged for a closer look

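IRF1 and PLSCR1 answered PB differently without and with RA: the change that PB gave on top of RA exceeded the change it gave alone by 0.97 for IRF1 and by 1.64 for PLSCR1 on the log2 scale (edgeR's quasi-likelihood interaction, adjusted p = 0.00345 and 0.0177). The departure had the same sign in both sets of replicates. MX1 in DMSO replicate 4 stood at 0.658 CPM, far from the other DMSO samples at 0.106 to 0.190 (gap over range 0.849). It was the only far sample among 80 groups of 4 examined, where chance marks about 1 in 20. Without DMSO replicate 4, the log2 change of MX1 with PB+RA reached 2.21 and was called. DMSO replicates 1 and 2 stood at the level that 3 counts give, so the size of this change is uncertain.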

How the results depend on the processing

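No called change turned direction under any alternative, while small uncalled ones did, such as B2M with PB when 1 replicate was left out (-0.07 to 0.06). The counts of called members moved by more than 1.5 times in these cases. With a log2 minimum of 1, 0 members rose and 3 fell with PB, 3 rose and 0 fell with RA, 5 rose and 4 fell with PB+RA, which was higher than PB for 5, higher than RA for 0 and lower than RA for 4, and 1 interaction was called. With no fold minimum, PB raised 4, RA lowered 7 and PB+RA was lower than PB for 4. The shares of all tested genes at these other minimums are not given here. The count of members raised by PB, 2, was 1 with RLE size factors, DESeq2, no filter on low counts, the 2 groups alone, and either set of replicates alone (STAT2 in replicates 3 and 4, at 0.50), and 1 to 3 when 1 replicate was left out. With replicates 1 and 2 alone PB+RA was higher than PB for 5, and with replicates 3 and 4 alone it was higher than RA for 3 and lower for 6. Leaving out 1 replicate, PB+RA was higher than RA for 2 to 5. With the replicate block RA raised 10, and 11 with the GC and length correction as well. The block added 13 calls over all comparisons, lost 0 and changed no other call. The SE limits what could be seen in genes under 1 CPM, such as HLA-B (SE 0.68 with PB+RA).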
